A study of Homo sapiens with 8 samples.

Results

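The 30 genes described here are listed as targets of the microRNA miR-29 and encode no structural protein of the extracellular matrix. They were found by gene symbol in the platform's annotation of the array, and each gene was read from its probe set with the highest mean. All 30 were present among 20172 genes on the array. CAV2's only probe set carried another symbol too, and PDGFRB had 2 probe sets, the dimmer of which was not used. The listing as targets was taken as given, and whether a gene's transcript holds a miR-29 site was not examined here.

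Expression was measured in 2 established human cell lines from prostate cancer, the androgen-responsive LNCaP and the androgen-independent DU145. Each line was transfected with miR-29b, with siRNA against TET2 (siTET2), with control siRNA (siControl) or with a negative control miRNA (nc). Total RNA was taken 72 hours later. All 8 dishes were grown in RPMI medium with 10% fetal bovine serum, and there was 1 array for each line and construct, with no replicate. The sequences of the transfected RNAs and their doses were not stated in the sources used here. siTET2 was the only construct directed against TET2, so effects of TET2 loss and of this construct cannot be told apart.

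A microRNA is a short RNA that guides an Argonaute protein to messenger RNAs, mostly through pairing of its 5′ seed with sites in the 3′ untranslated region, and the bound transcripts are translated less and degraded faster. Loss of transcript is usually modest for any single target, and a protein can be repressed with little change in its messenger RNA. The miR-29 family is best known for repressing collagens and enzymes of DNA methylation and demethylation, and its targets outside the matrix include growth factors, transcription factors and regulators of the cytoskeleton.

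The mature sequences of the family, taken from RefSeq on GRCh38.p14, are shown because the shared seed (bases 2 to 8, in capitals) defines which transcripts the transfected miRNA can pair with.
hsa-miR-29b-3p: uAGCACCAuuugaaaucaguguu
hsa-miR-29a-3p: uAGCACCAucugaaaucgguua
hsa-miR-29c-3p: uAGCACCAuuugaaaucgguua
The labels name miR-29b without its arm, and the 3p arm is printed because it carries the family's seed. hsa-miR-29b-3p is encoded by MIR29B1 at chr7:130877467-130877489 and by MIR29B2 at chr1:207802450-207802472. hsa-miR-29a-3p is encoded by MIR29A at chr7:130876748-130876769, and hsa-miR-29c-3p by MIR29C at chr1:207801865-207801886, all 4 loci on the minus strand. Of 2370 mature names in the RefSeq table, these 3 held the seed AGCACCA at bases 2 to 8. Counted from 1 at the 5′ end, with the base of miR-29b first, miR-29a differs at U10C, A18G, G21U and U22A, and miR-29c at A18G, G21U and U22A. miR-29b is 23 bases long and the others are 22. The messenger RNA site complementary to the seed reads UGGUGCU.

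TET2, the target of the siRNA and itself a listed miR-29 target, had log2 values of 8.59 with miR-29b, 7.89 with siTET2, 9.01 with siControl and 9.24 with nc in LNCaP. In DU145 it had 7.79 with miR-29b, 6.60 with siTET2, 7.85 with siControl and 7.96 with nc. The siTET2 array thus held the lowest TET2 value of either line. In the fit over both lines limma gave a fall in siTET2 against siControl of -1.18 log2 units, with SE 0.124 and adjusted p = 0.0181. Of 8 LNCaP markers measured, 7 or 8 lay above the array's median over genes in LNCaP and 0 in DU145, while of 9 DU145 markers 2 did in LNCaP and 9 in DU145. By the same measure every array had 1 of 9 immune cell markers, 1 or 2 of 9 fibroblast markers and 0 of 6 endothelial markers above its median. Array medians over 33297 probe sets ranged between 7.10 and 7.17 in LNCaP and between 6.59 and 6.66 in DU145, so levels were compared within a line only.

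Of the 30 genes, 17 reached the array's median over genes in all 8 arrays and 8 lay below it in all 8. The 8 were the growth factor genes IGF1 and PDGFC, the receptor PDGFRB, the lymphocyte transcription factors TBX21 and EOMES, the calcium-binding protein S100B, lipoprotein lipase LPL and the deiodinase DIO2. Differences for these genes are differences between low signals. CAV2 lay below the median in every LNCaP array and above it in every DU145 array, and ROBO1 and KCTD15 did the opposite. HDAC4 and BRWD3 crossed the median between arrays of a line.

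In LNCaP, 27 of the 30 genes had a lower value with miR-29b than with nc, with a median difference of -0.20 on the log2 scale. Over all 18995 probe sets that stood for a gene, 54.4% were lower and the median was -0.02. The exceptions were VEGFA, DIO2 and BRWD3. Over the same 30 genes the siControl array was itself below nc in 22, with a median of -0.08. Of all probe sets that stood for a gene, 59.9% were lower in siControl than in nc. Among the 19 listed genes of which at least 1 of the 2 arrays reached its median (the level floor used below), 18 were lower and the median was -0.22. Over all 9752 genes that passed this floor, 44.6% were lower and the median was 0.02. A value at least 0.2 log2 lower was found for 15 of the 30 genes and at least 0.2 higher for 1, beside 16.2% and 12.3% of all probe sets that stood for a gene. Only MYBL2 was at least 1.5-fold lower, against 0.236% of all genes above the floor.

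Against siControl, the other control array of LNCaP, the shift was smaller. Of 20 listed genes above the floor, 17 were lower with miR-29b, with a median of -0.13, where 49.6% of all genes were lower with a median of 0.0023. BRWD3 passed this floor through the siControl array alone, in which it was higher, so its direction was fixed by the filter, and without it 16 of 19 were lower with a median of -0.12. Over all 30 genes 19 were lower, with a median of -0.06 against 0.05 over all probe sets that stood for a gene, of which 39.7% were lower. MYBL2 was again the only listed gene at least 1.5-fold lower, beside 0.779% of all genes. Both comparisons use the same miR-29b array. The control arrays themselves differed, and 12 of 20 listed genes above the floor were lower in siControl than in nc, with a median of -0.02, where 45.8% of all genes were lower. BRWD3 passed here too through the siControl array alone, in which it was higher. Without it 12 of 19 were lower, with a median of -0.03. No listed gene differed by 1.5-fold between the LNCaP controls, where 0.467% of all genes were lower and 1.78% higher by that much, and 6 of the 30 were at least 0.2 log2 lower in siControl and 3 at least 0.2 higher, beside 30.2% and 16.2% of all probe sets that stood for a gene.

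In DU145 the values of the listed genes as a group lay close to those of all genes. Of 20 above the floor, 14 were lower with miR-29b than with nc and the median was -0.03, while 64.8% of all genes were lower with a median of -0.04. Over all 30 genes 15 were lower, beside 50.7% of all probe sets that stood for a gene. Against siControl 12 of 20 were lower with a median of -0.03, while 52.3% of all genes were lower with a median of -0.01. None reached 1.5-fold against either control, a size that 0.0516% of all genes reached on the low side and 0.0826% on the high side against nc, and 0.258% and 0.0619% against siControl. The siControl array itself was below nc in 12 of 20 listed genes, with a median of -0.02, and in 57.6% of all genes. HDAC4 passed the floor for miR-29b minus siControl through the miR-29b array alone, and for siControl minus nc through the nc array alone. It was higher in those arrays, so its direction was fixed by the filter in both comparisons. Whether the 2 lines differ in the response of a gene cannot be tested with 1 array per line and construct.

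**Figure D1:**
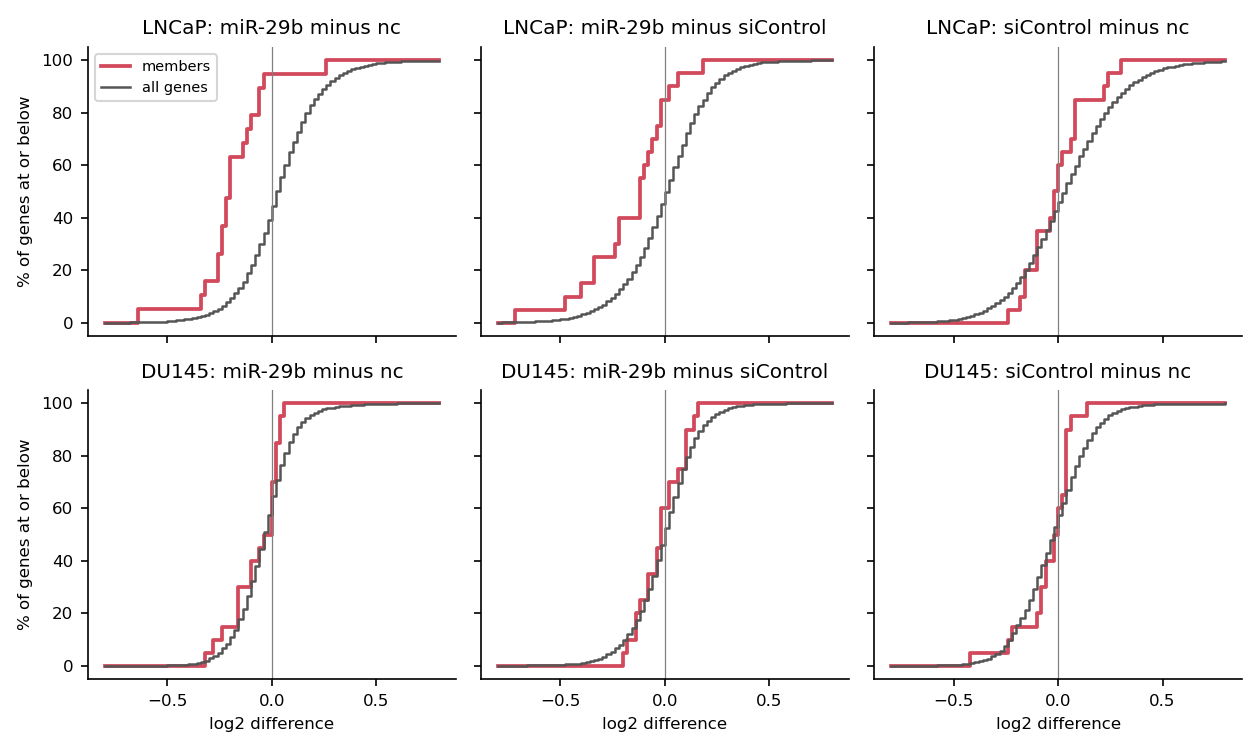
Cumulative share (%) of genes at or below each log2 difference, for the listed genes above the level floor (red) and for all genes above it (grey), in LNCaP (top) and DU145 (bottom). In LNCaP 63.16% of the listed genes but 9.58% of all genes lay at or below -0.2 for miR-29b minus nc, while in DU145 these shares were 15.0% and 10.89%; the right-hand panels show the control arrays against each other.

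The place of the miR-29b array among the 4 arrays of a line gave a view that used both controls and siTET2 together. For this the floor was the line's mean over its 4 arrays. In LNCaP, miR-29b was the lowest of the 4 arrays in 13 of 20 listed genes, against 19.5% of all genes, and the highest in 1, against 22.7%. It was below both control arrays in 16 of 20, against 23.6% of all genes, and above both in 1, against 30.3%. In DU145, miR-29b was lowest in 7 of 20 genes, against 25.8%, and highest in 2, against 14.9%. There it was below both controls in 11 of 20, against 37.3%, and above both in 5, against 19.5%. Without any floor it was lowest in 13 of 30 genes in LNCaP, where 17.5% of all genes were, and in 8 of 30 in DU145, where 22.0% were.

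In both lines at once, miR-29b gave the lowest of the 4 arrays for HBP1, PURB, GMFB, FEM1B and KCTD5, which are 5 of the 20 listed genes with a mean over 8 arrays above the floor, against 6.91% of all such genes. It gave the highest for VEGFA alone, against 4.27%. SP1, NASP and ABCE1 joined those 5 in lying below both controls in both lines, so that 8 of 20 did, against 10.2% of all genes. A stricter count, chosen after the values were seen, asked that miR-29b lie below both controls by more than the controls differed from each other. It was met in LNCaP by 11 of 20 genes, against 10.9% of all genes, and in DU145 by 6 of 20, against 16.4%. FEM1B, HBP1, KCTD5 and PURB met it in both lines, which is 4 of 20, against 2.14% of all genes.

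**Figure D2:**
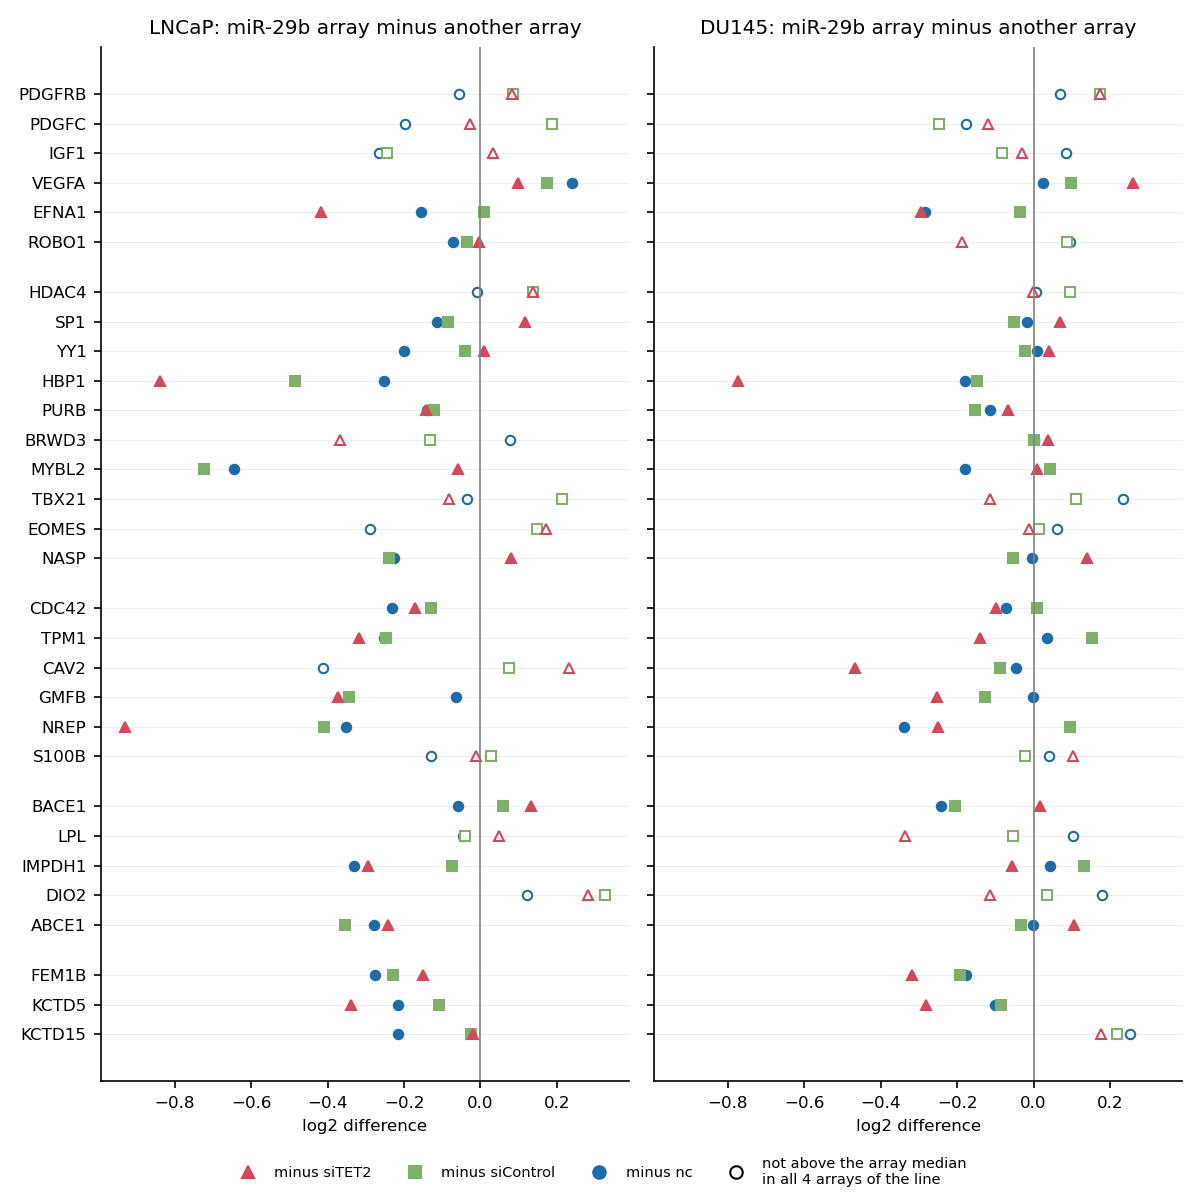
Log2 difference of the miR-29b array from the siTET2 (red triangle), siControl (green square) and nc (blue circle) array of the same line for the 30 genes, grouped by role; open symbols mark genes not above the array's median in all 4 arrays of the line. In LNCaP (left) most symbols lie left of 0, with MYBL2, HBP1 and NREP farthest; in DU145 (right) the HBP1 difference from siTET2, -0.77, stands apart from the rest.

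Counts by role are over all members of a role with no floor, and stand beside the shares of all genes below 0 given above (54.4% against nc and 39.7% against siControl in LNCaP, 50.7% against nc in DU145). The same share was 47.0% for miR-29b minus siControl in DU145 and 59.9% for siControl minus nc in LNCaP. The 10 regulators of transcription and chromatin had a median miR-29b minus nc difference of -0.17 in LNCaP, with 9 of 10 below 0, and of -0.0013 in DU145, with 5 of 10 below 0. Against siControl the medians were -0.10 in LNCaP (7 of 10) and -0.01 in DU145 (5 of 10), and siControl minus nc had -0.02 in LNCaP (6 of 10). HBP1, an HMG-box repressor that restrains entry into the cell cycle, had 8.24 with miR-29b, 9.08 with siTET2, 8.73 with siControl and 8.50 with nc in LNCaP. In DU145 it had 8.30 with miR-29b, 9.07 with siTET2, 8.44 with siControl and 8.47 with nc. HBP1 was thus lowest with miR-29b and highest with siTET2 in each line, with both controls between them. Its miR-29b minus siTET2 difference was -0.84 in LNCaP and -0.77 in DU145, which is 1.79-fold and 1.71-fold lower with miR-29b. Against the controls it was -0.49 (siControl) and -0.25 (nc) in LNCaP and -0.15 and -0.18 in DU145.

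MYBL2, the B-Myb transcription factor that drives genes of the cell cycle, had 9.89 with miR-29b, 9.95 with siTET2, 10.61 with siControl and 10.53 with nc in LNCaP. Both the miR-29b and the siTET2 array were below both controls there. The DU145 arrays had 11.03 with miR-29b, 11.02 with siTET2, 10.98 with siControl and 11.21 with nc, so that nc was the array apart. Its LNCaP difference from nc, -0.64 or 1.56-fold lower with miR-29b, was one that only 0.164% of all genes above the floor exceeded on the low side. Beside MYBL2 in LNCaP, the median of 27 G2/M genes was 0.20 for miR-29b minus nc and -0.15 for miR-29b minus siControl, and the 22 S phase genes 0.17 and 0.0046. For siTET2 minus siControl in LNCaP, where MYBL2 differed by -0.66, the medians were -0.71 (G2/M, 27 of 27 below 0) and -0.55 (S phase, 21 of 22). Of all genes above the floor 47.2% were below 0 in that comparison. The part of the cell cycle in these values was not tested.

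PURB, which binds purine-rich single-stranded DNA and represses muscle genes, had 10.01 with miR-29b, 10.15 with siTET2, 10.13 with siControl and 10.15 with nc in LNCaP. The other 3 arrays were within 0.02 of each other, and miR-29b was 0.12 or more below them. In DU145 PURB had 9.46 with miR-29b, 9.53 with siTET2, 9.62 with siControl and 9.58 with nc, and miR-29b was again lowest. NASP, a chaperone that carries histones, had 8.97 with miR-29b, 8.89 with siTET2, 9.20 with siControl and 9.19 with nc in LNCaP. Here too the miR-29b and siTET2 arrays both lay below the controls. In DU145 NASP had 8.61 with miR-29b, 8.47 with siTET2, 8.66 with siControl and 8.61 with nc, where siTET2 was the low array.

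SP1, a zinc finger factor of GC-rich promoters, had 9.55 with miR-29b, 9.43 with siTET2, 9.63 with siControl and 9.66 with nc in LNCaP, and 9.79 with miR-29b, 9.72 with siTET2, 9.84 with siControl and 9.81 with nc in DU145. siTET2 was its lowest array in each line, with miR-29b next. YY1, a zinc finger factor that activates or represses by context, had 10.19 with miR-29b, 10.18 with siTET2, 10.23 with siControl and 10.39 with nc in LNCaP, so that only nc was apart. In DU145 its 4 values spanned 10.59 (siTET2) to 10.65 (siControl). BRWD3, a bromodomain protein that recognises modified histones, had 7.64 with miR-29b, 8.002 with siTET2, 7.77 with siControl and 7.56 with nc in LNCaP, and values between 8.97 and 9.01 in all DU145 arrays.

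The histone deacetylase HDAC4 differed from nc by -0.01 in LNCaP (7.35 with miR-29b and 7.36 with nc) and by 0.0052 in DU145 (7.49 in each). TBX21 and EOMES, the T-box factors of T and natural killer cells, were below the array's median throughout. EOMES had 6.85 with miR-29b, 6.68 with siTET2, 6.70 with siControl and 7.14 with nc in LNCaP. Its value with miR-29b was below nc and above the other 2 arrays, and in DU145 all 4 were between 6.37 and 6.44. TBX21 had 7.10 with miR-29b, 7.19 with siTET2, 6.89 with siControl and 7.14 with nc in LNCaP, and 6.64 with miR-29b, 6.76 with siTET2, 6.53 with siControl and 6.41 with nc in DU145. In neither line was miR-29b an end value.

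The 6 genes of the cytoskeleton and membrane all had a lower value with miR-29b than with nc in LNCaP, with a median of -0.24, and 4 of 6 did in DU145, with a median of -0.02. Against siControl the medians were -0.19 in LNCaP (4 of 6 below 0) and -0.0071 in DU145 (3 of 6), and siControl minus nc had -0.06 in LNCaP (4 of 6). NREP, also called P311, a small protein that stimulates translation of transforming growth factor beta, had 9.86 with miR-29b, 10.79 with siTET2, 10.27 with siControl and 10.21 with nc in LNCaP. The siTET2 array was above both controls and the miR-29b array below them, 1.90-fold apart (-0.93). In DU145 NREP had 7.53 with miR-29b, 7.78 with siTET2, 7.43 with siControl and 7.87 with nc. There siControl differed from nc by -0.43 and the miR-29b array lay between them.

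GMFB, which takes apart branched actin filaments, had 10.35 with miR-29b, 10.72 with siTET2, 10.69 with siControl and 10.41 with nc in LNCaP. Its values in DU145 were 10.13 with miR-29b, 10.38 with siTET2, 10.26 with siControl and 10.13 with nc. The miR-29b array was lowest in each line, but its difference from nc was only -0.06 in LNCaP and -0.0017 in DU145. TPM1, a tropomyosin of actin filaments, had 9.26 with miR-29b, 9.57 with siTET2, 9.50 with siControl and 9.51 with nc in LNCaP, where only miR-29b was apart. The values in DU145 were 9.40 with miR-29b, 9.55 with siTET2, 9.25 with siControl and 9.37 with nc, with miR-29b above both controls.

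CDC42, which controls cell polarity, had 7.79 with miR-29b, 7.96 with siTET2, 7.92 with siControl and 8.02 with nc in LNCaP, lowest with miR-29b. Its DU145 values lay between 7.95 (siControl) and 8.06 (siTET2), with miR-29b at 7.96. CAV2, a caveolin of membrane pits, had 11.02 with miR-29b, 11.49 with siTET2, 11.11 with siControl and 11.07 with nc in DU145, the line in which its signal was above the median. There siTET2 was the array apart, 1.38-fold above miR-29b. In LNCaP its low signal ranged between 5.23 (siTET2) and 5.87 (nc). S100B was below the median throughout, and its miR-29b minus nc difference was -0.13 in LNCaP and 0.04 in DU145.

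All 3 BTB and ubiquitin ligase adaptors had a lower value with miR-29b than with nc in LNCaP, with a median of -0.22, and than with siControl, with a median of -0.11. The siControl array was itself below nc for all 3, with a median of -0.11. FEM1B, a substrate receptor of a cullin-2 ubiquitin ligase, had 9.52 with miR-29b, 9.67 with siTET2, 9.75 with siControl and 9.80 with nc in LNCaP. In DU145 it had 9.22 with miR-29b, 9.53 with siTET2, 9.41 with siControl and 9.39 with nc. The miR-29b array was lowest in each line, by 0.15 and 0.18 or more on the log2 scale. FEM1B differed from nc by -0.28 and -0.18 and from siControl by -0.23 and -0.19, in LNCaP and DU145.

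KCTD5, an adaptor of cullin-3 ligases, had 9.58 with miR-29b, 9.91 with siTET2, 9.69 with siControl and 9.79 with nc in LNCaP. Its DU145 values were 9.16 with miR-29b, 9.44 with siTET2, 9.24 with siControl and 9.26 with nc. It had the order of HBP1 in each line, lowest with miR-29b and highest with siTET2. KCTD15, a related BTB protein, had 8.22 with miR-29b, 8.24 with siTET2, 8.24 with siControl and 8.43 with nc in LNCaP, where only nc was apart. In DU145 it had 7.23 with miR-29b, 7.05 with siTET2, 7.01 with siControl and 6.98 with nc, highest with miR-29b and below the array's median in all 4.

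**Figure D3:**
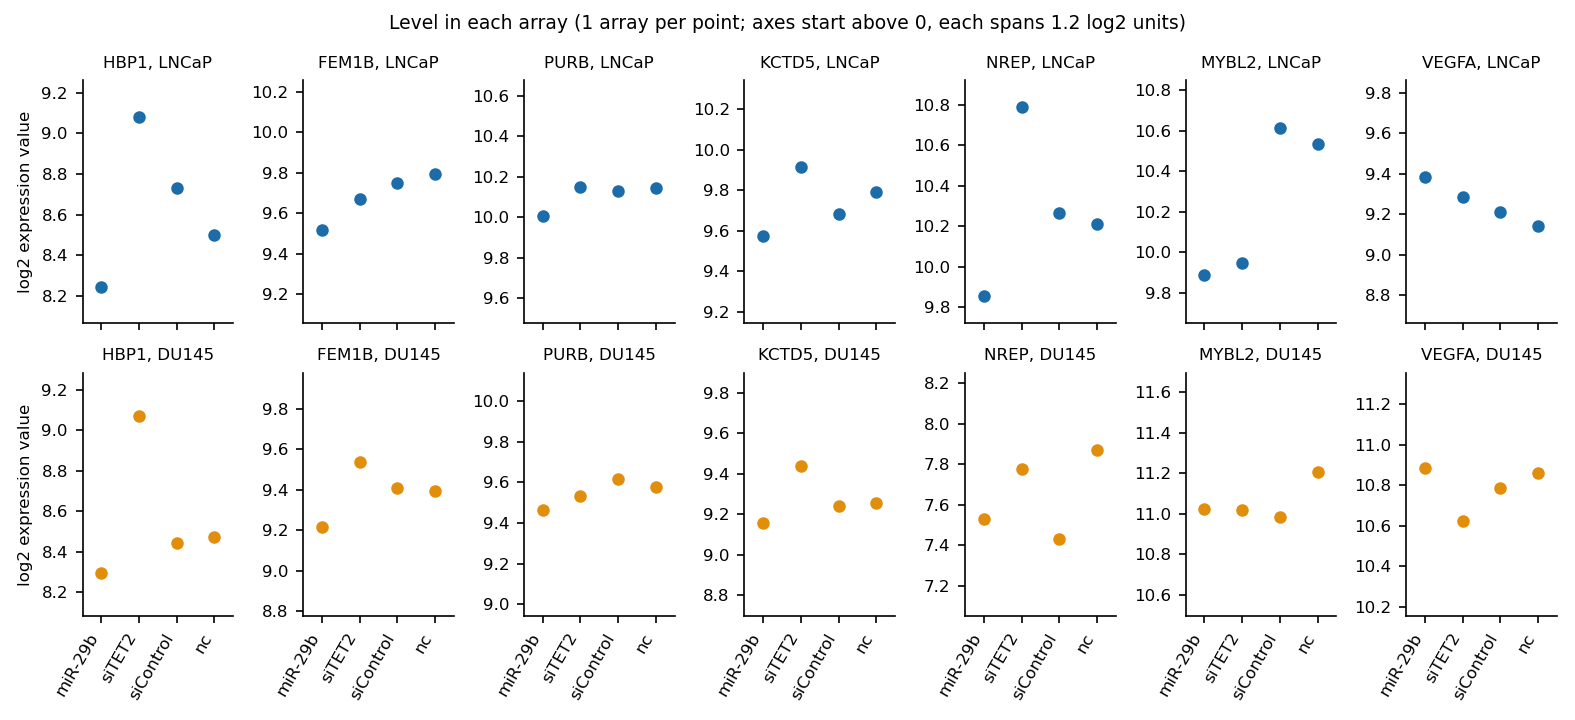
Log2 expression value of 7 of the genes in each array of LNCaP (top, blue) and DU145 (bottom, orange), 1 point per array; axes do not start at 0 and each spans 1.2 log2 units. HBP1, FEM1B, PURB and KCTD5 have their lowest point with miR-29b in each line, MYBL2 and NREP in LNCaP only, and VEGFA has its highest point with miR-29b in each line.

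The 6 growth factors, guidance ligands and receptors had a median miR-29b minus nc difference of -0.11 in LNCaP, with 5 of 6 below 0, and of 0.05 in DU145, with 2 of 6 below 0. Against siControl the LNCaP median had the other sign, 0.05 with 2 of 6 below 0, and siControl minus nc alone gave -0.09 with 5 of 6 below 0. The DU145 median against siControl was 0.03, with 3 of 6 below 0. VEGFA, the chief growth factor of blood vessels, had 9.38 with miR-29b, 9.29 with siTET2, 9.21 with siControl and 9.14 with nc in LNCaP. In DU145 it had 10.88 with miR-29b, 10.62 with siTET2, 10.79 with siControl and 10.86 with nc. It was the listed gene with the highest value in the miR-29b array of each line, though in DU145 by only 0.03 over nc. EFNA1, a ligand of Eph receptors, had 8.56 with miR-29b, 8.97 with siTET2, 8.55 with siControl and 8.71 with nc in LNCaP, and 8.03 with miR-29b, 8.33 with siTET2, 8.07 with siControl and 8.32 with nc in DU145. In each line the miR-29b and siControl arrays were low and close, and the siTET2 array was highest.

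ROBO1, the receptor of Slit guidance proteins, was above the median in LNCaP, where its values ran from 8.77 with miR-29b and with siTET2 to 8.84 with nc. In DU145 its low signal had 5.14 with miR-29b, 5.33 with siTET2, 5.06 with siControl and 5.05 with nc. The other 3 genes of this role gave low signals in both lines. IGF1 differed from nc by -0.27 and from siControl by -0.24 in LNCaP, but by 0.08 and -0.08 in DU145. PDGFC, a platelet-derived growth factor, was -0.20 from nc and 0.19 from siControl in LNCaP, and -0.18 and -0.25 in DU145. PDGFRB, a receptor of platelet-derived growth factors, was -0.06 and 0.09 in LNCaP and 0.07 and 0.17 in DU145.

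The 5 genes of enzymes and translation had medians of -0.06 in LNCaP, with 4 of 5 below 0, and 0.04 in DU145, with 2 of 5. Against siControl they were -0.04 in LNCaP (3 of 5) and -0.03 in DU145 (3 of 5), and siControl minus nc in LNCaP gave a median farther from 0, -0.12, with 4 of 5 below 0. ABCE1, which splits ribosomes after translation ends, had 10.36 with miR-29b, 10.60 with siTET2, 10.71 with siControl and 10.64 with nc in LNCaP. The DU145 values were 10.92 with miR-29b, 10.82 with siTET2, 10.95 with siControl and 10.92 with nc. The miR-29b array was lowest in LNCaP, while in DU145 the siTET2 array was. BACE1, the beta-secretase that cuts the amyloid precursor protein, had 8.84 with miR-29b, 8.70 with siTET2, 8.78 with siControl and 8.89 with nc in LNCaP. Its values in DU145 were 8.38 with miR-29b, 8.36 with siTET2, 8.59 with siControl and 8.62 with nc, where miR-29b and siTET2 both lay at least 0.2 log2 below the controls.

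IMPDH1, an enzyme of guanine nucleotide synthesis, had 8.99 with miR-29b, 9.29 with siTET2, 9.07 with siControl and 9.32 with nc in LNCaP, and 8.998 with miR-29b, 9.06 with siTET2, 8.87 with siControl and 8.95 with nc in DU145. It was lowest with miR-29b in LNCaP and above both controls in DU145. LPL, which releases fatty acids from lipoproteins, and DIO2, which activates thyroid hormone, gave low signals. LPL differed from nc by -0.05 in LNCaP and 0.10 in DU145, and DIO2 by 0.12 and 0.18.

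A construct effect shared by LNCaP and DU145 was tested by limma over the 8 arrays, in a model of line plus construct that left 3 residual degrees of freedom. Its error term is how far arrays depart from equal construct effects in the 2 lines. The model was fitted to the 9498 genes in the upper part of the mean level over 8 arrays, split at the median, and these held 20 of the listed genes. The other 10 (DIO2, EOMES, HDAC4, IGF1, LPL, PDGFC, PDGFRB, ROBO1, S100B and TBX21) were too low to enter.

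Against nc, limma called 0 genes of 9498 at an adjusted p under 0.05 (0.0% of all genes), and 0 of the 20 listed genes, each with an adjusted p of 0.995. At an unadjusted p under 0.05 there were 362 genes, 3.81% of all. Of the listed genes 17 of 20 had a common difference below 0, with a median of -0.14, where 51.6% of all genes were below 0. MYBL2 (-0.41, SE 0.171), FEM1B (-0.23, SE 0.0944) and EFNA1 (-0.22, SE 0.0924) reached an unadjusted p under 0.05, all lower, as did 2.66% of all genes. Against siControl, limma again called 0 genes (0.0%), with 675 at an unadjusted p under 0.05, 7.11% of all. Of the 20 listed genes 17 were below 0, with a median of -0.07, beside 50.3% of all genes. HBP1 (-0.32, SE 0.103) and GMFB (-0.24, SE 0.0903) reached an unadjusted p under 0.05, both lower, as did 4.43% of all genes. Their limma adjusted p was 0.698.

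Against siTET2, 53 genes rose and 39 fell with miR-29b, and those that fell were 0.411% of all genes. HBP1 was the listed gene that fell, with a common difference of -0.81, SE 0.103 and limma adjusted p = 0.0208. The call was lost without the LNCaP miR-29b array (-0.73, adjusted p = 0.180), without the DU145 miR-29b array (-0.89, adjusted p = 0.102), without the DU145 siTET2 array (-0.77, adjusted p = 0.0721), and when low genes were tested too (adjusted p = 0.104). NREP (-0.59, SE 0.167), EFNA1 (-0.36, SE 0.0924), GMFB (-0.31, SE 0.0903), KCTD5 (-0.31, SE 0.0842) and FEM1B (-0.23, SE 0.0944) were lower at an unadjusted p under 0.05, with limma adjusted p between 0.103 and 0.232. These 6 of 20 stand beside 9.53% of all genes that were lower at that level. The median over the 20 was -0.13, with 14 below 0, where 47.8% of all genes were.

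**Figure D4:**
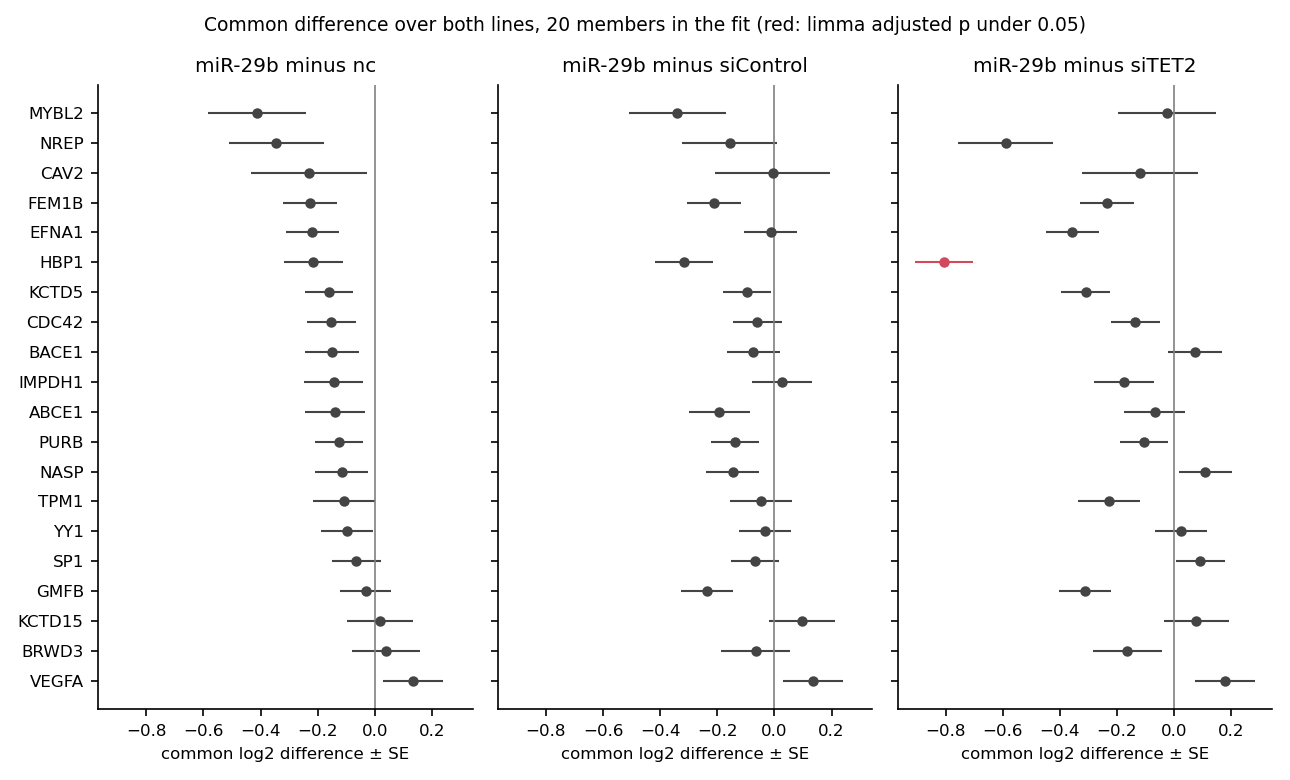
Common log2 difference over both lines with its SE (bars) from limma for the 20 listed genes in the fit, for miR-29b minus nc (left), minus siControl (middle) and minus siTET2 (right), in the order of the left panel. HBP1 against siTET2 (-0.81, red) is the one difference with an adjusted p under 0.05; 17 of 20 points lie below 0 in the left and in the middle panel and 14 of 20 in the right one.

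A lower value with miR-29b than with siTET2 can hold a lower miR-29b array, a higher siTET2 array or both, so siTET2 was set against siControl as well. Of all genes 3 rose (0.0316%) and 33 fell (0.347%), and 0 of the 20 listed genes passed, with 1316 genes and 5 of the 20 at an unadjusted p under 0.05 (13.9% of all genes). HBP1 was 0.35 higher with siTET2 in LNCaP and 0.62 higher in DU145, a common difference of 0.49 (SE 0.103, limma adjusted p = 0.0899). It was the listed gene at least 1.5-fold above siControl in DU145, beside 0.916% of all genes. The listed genes above the floor had a median of 0.02 in LNCaP (9 of 20 below 0, where 47.2% of all genes were) and 0.10 in DU145 (8 of 20, where 52.8% were). In DU145 HDAC4 passed this floor through the siTET2 array alone, in which it was higher, so its direction was fixed by the filter. EFNA1 (0.34, SE 0.0924), NREP (0.43, SE 0.167) and KCTD5 (0.21, SE 0.0842) were higher and NASP (-0.26, SE 0.0925) lower at an unadjusted p under 0.05, with limma adjusted p between 0.167 and 0.315. In LNCaP MYBL2 was the listed gene at least 1.5-fold lower with siTET2, beside 2.3% of all genes.

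In counts chosen after the values were seen, siTET2 was above siControl in both lines for 8 of the 20 genes (CDC42, EFNA1, GMFB, HBP1, IMPDH1, KCTD5, NREP and TPM1), against 30.7% of all genes. It was the highest of the 4 arrays in both lines for EFNA1, GMFB, HBP1, KCTD5 and TPM1, 5 of 20, against 12.0%. GMFB, HBP1 and KCTD5 had both the lowest value with miR-29b and the highest with siTET2 in each line, 3 of 20, against 2.45% of all genes. Directly between arrays, HBP1 and NREP were at least 1.5-fold lower with miR-29b than with siTET2 in LNCaP, beside 1.19% of all genes, and HBP1 alone in DU145, beside 2.29%. The median of miR-29b minus siTET2 was -0.16 in LNCaP (15 of 20 below 0, where 50.5% of all genes were, or 14 of 19 without BRWD3, which passed the floor through the siTET2 array alone) and -0.06 in DU145 (12 of 20, where 48.2% were).

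Other listed targets of miR-29 gave a measure on the same arrays. Of 30 matrix targets only 6 were above the floor of the common fit. Their median miR-29b minus nc difference was -0.15 in LNCaP (5 of 6 below 0) and -0.04 in DU145 (3 of 6), with 0.13 (1 of 6) and 0.05 (3 of 6) against siControl. The control arrays alone gave -0.27 (5 of 6) in LNCaP and 0.0063 (3 of 6) in DU145 for siControl minus nc. With no floor, 26 of the 30 matrix targets were below nc in the LNCaP miR-29b array, and 26 in the LNCaP siControl array. LAMC1, a laminin chain, had -0.35 and -0.08 against nc and -0.52 and -0.05 against siControl, in LNCaP and DU145. LOXL2, which cross-links collagen, had -0.22 and -0.26 against nc and 0.07 and -0.14 against siControl. ELN, the elastin gene, had -0.11 and 0.37 against nc and 0.15 and 0.20 against siControl. Of 24 further targets measured, 16 were above the floor, with medians of -0.23 in LNCaP and -0.13 in DU145 against nc, 12 of 16 below 0 in each, where 44.6% and 64.8% of all genes that passed the floor on the array pair were. Against siControl the medians were -0.14 (9 of 16) and -0.06 (10 of 16), beside 49.6% and 52.3% of all genes below 0. For siControl minus nc they were -0.18 (12 of 16) and -0.04 (11 of 16), beside 45.8% and 57.6%. TET3, a relative of TET2, differed from nc by -0.63 and -0.26 and from siControl by -0.53 and -0.32. BAK1, which opens the mitochondrial membrane in apoptosis, differed from nc by -0.62 and -0.36 and from siControl by -0.22 and -0.11, with control arrays that differed by -0.39 and -0.25 (siControl minus nc). Neither list held a gene that limma called against nc or siControl. Against siTET2, the histone demethylase KDM5B, named after its value was seen, fell (-0.69, SE 0.108, limma adjusted p = 0.0364). TET2 itself was 0.94 higher in that comparison (SE 0.124, limma adjusted p = 0.0213), in which the other array is the one with the siRNA against TET2, and lower with miR-29b than with both controls in each line.

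The 13 genes of the small RNA silencing machinery had medians of 0.06 and -0.03 against nc, in LNCaP and DU145. Of these 4 of 13 and 8 of 13 were below 0, beside 44.6% and 64.8% of all genes that passed the floor on the array pair. Of these, AGO2, the Argonaute that cleaves its targets, had -0.24 and -0.10, TNRC6C, a partner of Argonaute in silencing, 0.22 and 0.10, and PRKRA, a partner of Dicer, 0.22 and 0.05. Interferon response genes, which double-stranded RNA can induce, differed between arrays. Over 10 of them above the floor the median difference of miR-29b was 0.77 from nc and 0.43 from siControl in LNCaP, and -0.17 from nc and -0.52 from siControl in DU145. IFIT1, an antiviral RNA-binding protein, had a miR-29b minus nc difference of 1.92 in LNCaP and -0.24 in DU145. The part of the interferon response in the values of the listed genes was not tested.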

How the data were processed

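The table the authors deposited held log2 values of 33297 probe sets on 8 arrays, made with Affymetrix Expression Console and RMA per the submitters' processing notes. RMA corrects background, quantile normalizes and summarises probes. The log base and which arrays were normalized together were not given in the sources used here, and values between 2.0 and 14.5 were read as log2. No value was missing, and 0 columns were unused. Symbols came from the platform annotation, where 19460 probe sets carried 1 symbol, 1754 several and 12083 were not listed. Entrez identifiers changed 0 symbols. The highest-mean probe set stood for each gene, and probe sets with several symbols were kept, which gave 20172 genes on 18995 probe sets.

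Differences between arrays of a line have no test. A 1.5-fold difference is 0.585 log2 units. The level floor was the 50th percentile over genes, reached by the higher array of a pair (by the mean of the arrays for counts over 4 or 8 arrays). limma 3.58.1 in R 4.3.3 fitted line and construct, adjusted by Benjamini-Hochberg, at a threshold of 0.05. Scripts in Python 3.11.15 made the rest. The limma fit was tried on simulated arrays for miR-29b minus nc. It recovered 99 of 100 genes lowered by 1 log2 unit and 44 of 100 lowered by 0.5, with 7 false calls. The simulated noise was independent between arrays and drawn from limma's own variance estimate, and each drop was equal in both lines. These counts therefore do not show how many drops the fit would find in the real arrays. Drops as small as the listed genes' common median against nc, -0.14, were not simulated. The labels name no separate cultures of a line and construct, so the p-values rest on how far arrays depart from equal construct effects in the 2 lines. That spread holds array noise and any real difference between the lines alike, and the number of arrays limits the precision.

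The 30 genes and the further lists were chosen with earlier results of these data known. Genes named are the 30, TET2 and up to 3 of each further list with the largest average miR-29b minus nc difference. Some genes of those lists were not analysed here. Alternatives were the floor, probe set choice, centring, the mean of both controls, limma's trend, no line term, and leaving out each array. A floor on the line's mean and leaving out BRWD3 were added after seeing the data.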

Additional observations from a re-analysis of the deposited data

Results flagged for a closer look

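KCTD15 was flagged because its miR-29b array stood at opposite ends of the 2 lines. In LNCaP the miR-29b minus nc difference was -0.215 and miR-29b was the lowest of the 4 arrays. The miR-29b array there differed by only -0.0195 from siTET2 and -0.0246 from siControl, and siControl minus nc was -0.1903. In DU145 the miR-29b minus nc difference was 0.2524 and miR-29b was the highest. With 1 array per line and construct the difference between the lines was not tested. The DU145 probe set signal lay below the array's median over genes in all 4 arrays.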

How the results depend on the processing

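A median of array differences is said to have moved here when its shift exceeded the size of a control median. That control median was the listed genes' siControl minus nc median of the line, -0.0225 in LNCaP and -0.0226 in DU145. Genes of opposite sign partly cancel in it, and most single listed genes above the floor differed by more between the control arrays. Against the mean of both controls, the LNCaP miR-29b minus nc median was -0.17. Without a floor, medians in LNCaP were -0.0584 for miR-29b minus siControl, -0.0238 for miR-29b minus siTET2 and -0.0763 for siControl minus nc. In DU145 they were -0.0002 for miR-29b minus nc, 0.0704 for siTET2 minus siControl and 0.0226 for siControl minus nc, the last with the sign turned. With a floor at the 75th percentile the LNCaP median of miR-29b minus siControl was -0.23, and miR-29b was the lowest LNCaP array in 8 of 10 genes left. Centred on all genes, the DU145 miR-29b minus nc median was 0.0105, with the sign turned. With a floor on the mean of the line's 4 arrays, or without BRWD3 in LNCaP, both added after seeing the data, no median moved or changed sign. The causes were not tested.

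Of the counts in the common fit, that for miR-29b minus siTET2 (92) was 0 without a floor, 144 with the 75th percentile floor, 226 with limma's trend, and 0 (without the DU145 miR-29b array) to 244 (without the LNCaP siTET2 array) when 1 array was left out. That for siTET2 minus siControl (36) was 1 without a floor and 0 (without either siControl array or the DU145 siTET2 array) to 141 (without the LNCaP siTET2 array) when 1 array was left out. The arrays of a construct share the number 1 only, so the cell line was the block: with no block for cell line both counts were 0, and HBP1 had adjusted p = 1 against siTET2. Over the settings that tested it, HBP1 against siTET2 stayed between -0.89 and -0.73, with adjusted p between 0.0103 and 1. HBP1 was not in the fit with the 75th percentile floor. limma called no other listed gene under any setting run.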
